A study of Rattus norvegicus and Heterocephalus glaber with 6 samples.

Results

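Genes of bile acid synthesis, conjugation and export were examined in polyadenylated liver RNA sequenced after 8 hours in 8% oxygen, from naked mole rats (3 libraries) and from rats (3 libraries). The members were the rows whose symbol equalled 1 of 10 listed symbols, whatever the case of the letters. Of the 10 symbols, 0 were matched in the naked mole rat tables as used here, which hold 734 rows, and 9 were matched in the rat tables, which hold 22549 rows. Abcb11, the bile salt export pump, is not analysed here. Both groups had the same exposure, libraries from normal oxygen are not analysed here, and the labels name no strain, age or sex. The account therefore describes rat liver under low oxygen and makes no statement on the effect of oxygen or on a difference between species.

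Bile acids are made from cholesterol in hepatocytes, joined to glycine or taurine, pumped into bile and taken back up from portal blood. The classic pathway starts with Cyp7a1, and Cyp8b1 directs intermediates towards cholic acid. The alternative pathway starts with Cyp27a1 and continues through Cyp7b1. When bile acids accumulate they activate the nuclear receptor FXR, encoded by Nr1h4, which lowers Cyp7a1 transcription in part through Nr0b2 (SHP).

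Levels are in FPKM, which divides the fragments of a gene by its length and by the library's mapped fragments, so that those of different genes can be set side by side. The 9 members each lay on an assembled chromosome with the status OK in the 3 libraries, and 8 overlapped no other row. The Abcb4 row overlapped that of Grm3, which was listed at 0 in each rat. In the tables' own coordinates, whose build is not stated, the synthesis genes lie on chromosome 5 from 19707158 to 19716856 (Cyp7a1), chromosome 2 from 103102678 to 103271273 (Cyp7b1), chromosome 8 from 127018907 to 127020878 (Cyp8b1) and chromosome 9 from 74039203 to 74068648 (Cyp27a1). Slc27a5 lies on chromosome 1 from 72924629 to 72935223 and Baat on chromosome 5 from 66245785 to 66254757. Abcb4 lies on chromosome 4 from 21946273 to 22004328, Slc10a1 on chromosome 6 from 104735838 to 104749464 and Nr1h4 on chromosome 7 from 26189758 to 26307061. Absolute depth is unknown. From the common step of values under 0.1 FPKM, rat 1 was 1.05 times as deep as rat 2 and 0.983 times as deep as rat 3. Of the 5 hepatocyte markers with 3 values, 5 reached 10 FPKM. No source states that the libraries come from separate animals, so the spread between them may be technical in part.

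Upstream sequence is shown for 4 of the 6 members with a matched promoter (below). All 6 stood lowest in rat 1, so that trait does not set the 4 apart. The sequences are the 250 bases before the annotated start, 5′ to 3′ on the gene's strand, from RefSeq, build GRCr8, at chr8:130457593-130457842 for Cyp8b1, chr5:68656138-68656387 for Baat, chr4:26164146-26164395 for Abcb4 and chr6:106357945-106358194 for Slc10a1, each on the minus strand. Capitals mark letters that match any of the 7 motifs named after the sequences.
Cyp8b1: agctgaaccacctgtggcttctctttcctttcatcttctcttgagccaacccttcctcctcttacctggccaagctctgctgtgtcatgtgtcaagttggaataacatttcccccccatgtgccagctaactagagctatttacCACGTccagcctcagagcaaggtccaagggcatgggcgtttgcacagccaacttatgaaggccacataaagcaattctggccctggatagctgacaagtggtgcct
Baat: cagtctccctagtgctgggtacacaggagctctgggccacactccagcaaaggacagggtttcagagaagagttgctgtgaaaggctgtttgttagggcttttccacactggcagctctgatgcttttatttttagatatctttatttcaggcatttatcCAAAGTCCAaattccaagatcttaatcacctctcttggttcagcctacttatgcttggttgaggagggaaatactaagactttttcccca
Abcb4: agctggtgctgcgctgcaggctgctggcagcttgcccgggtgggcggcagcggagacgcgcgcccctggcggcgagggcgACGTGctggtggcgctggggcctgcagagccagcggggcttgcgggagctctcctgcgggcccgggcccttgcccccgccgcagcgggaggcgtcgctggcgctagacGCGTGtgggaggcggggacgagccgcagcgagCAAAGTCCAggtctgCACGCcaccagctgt
Slc10a1: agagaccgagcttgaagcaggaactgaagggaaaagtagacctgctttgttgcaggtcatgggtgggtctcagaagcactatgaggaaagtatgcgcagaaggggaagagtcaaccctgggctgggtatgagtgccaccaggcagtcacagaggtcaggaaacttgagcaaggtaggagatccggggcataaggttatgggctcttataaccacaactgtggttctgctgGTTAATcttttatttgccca
RefSeq promoters were matched for 6 of the 10 symbols. The motif CAAAGTCCA, recognised by the hepatocyte factor HNF4, was found 90 to 82 bases before the start of Baat and 30 to 22 bases before that of Abcb4, against 0.338% of 33469 rat promoters. Its shorter part AGTCCA, which lies inside it, was also in Slc27a5, and is in 11.6% of all promoters. GTTAAT, a part of the HNF1 motif, was found 20 to 15 bases before the start of Slc10a1, against 6.45% of promoters. The core of the hypoxia response element was searched as ACGTG, found in Cyp8b1 and Abcb4 and in 16.6% of promoters, and as GCGTG, found in Abcb4 and Slc27a5 and in 25.9% of promoters. CAAGGTCA, recognised by LRH-1 (Nr5a2), was found in Cyp27a1 and in 1.33% of promoters. The inverted repeat recognised by FXR, with 1 free base between its arms, had no match in the 6 promoters and is in 0.0388% of all. Both strands were searched, the motifs were chosen with the sequences in view, and a match describes letters in this window.

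The synthesis enzymes spanned the widest range of levels. Cyp8b1, the sterol hydroxylase that determines the share of cholic acid, was at 521, 596 and 597 FPKM in rat 1, rat 2 and rat 3, a mean of 571 ± 43.8 (SD, n = 3). The 3 libraries were close together, and this was the highest member in each of them. Its mean ranked 115 among the 9994 rat rows whose mean was 1 FPKM or more, the rows used as background. Rows with a missing value in any rat were left out, such as that of Alb, missing in rat 1 and rat 2. With such rows counted, its place may be further down.

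Cyp27a1, the mitochondrial sterol hydroxylase that opens the alternative pathway, was at 129, 145 and 138 FPKM in the same order, a mean of 137 ± 7.76 (SD, n = 3). It varied little, with a highest value 1.12 times the lowest. Cyp7a1, the rate-limiting enzyme of the classic pathway, was at 41.2, 38.5 and 68.6 FPKM in rat 1, rat 2 and rat 3. Rat 1 and rat 2 stood together and rat 3 above them.

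Cyp7b1, the hydroxylase that follows Cyp27a1, was at 0.997, 1.07 and 0.960 FPKM, a mean of 1.01 ± 0.0545 (SD, n = 3). This is close to the lower limit of the rows used as background, and it was the lowest member in every library.

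Within a library the scale of that library cancels, so ratios were taken between members. Uncertainty particular to a gene does not cancel. Every value of Cyp8b1 and Cyp27a1 lay above its own row's deposited upper confidence bound, and none of Cyp7a1 did. The sizes of their ratios to Cyp7a1 are therefore uncertain. Cyp8b1 exceeded Cyp7a1 by 12.7, 15.5 and 8.69 times in rat 1, rat 2 and rat 3, a mean log2 ratio of 3.58 ± 0.42 (SD, n = 3). Cyp27a1 exceeded Cyp7a1 by 3.14, 3.76 and 2.01 times, a mean log2 ratio of 1.52 ± 0.46. Cyp7b1 was far below Cyp7a1, with log2 ratios of -5.37, -5.17 and -6.16. In these 3 ratios rat 3 stood lowest, the library in which Cyp7a1 was highest.

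The conjugating enzymes were the next highest after Cyp8b1. Slc27a5, the bile acid CoA ligase that activates bile acids, was at 215, 291 and 330 FPKM in rat 1, rat 2 and rat 3, a mean of 279 ± 58.5 (SD, n = 3). Baat, which transfers the activated bile acid to glycine or taurine, was at 193, 249 and 247 FPKM, a mean of 229 ± 31.6. For both genes rat 1 was the low library. Slc27a5 exceeded Baat in each of the 3 libraries although their ranges overlapped, with Baat at 0.899, 0.856 and 0.747 times Slc27a5.

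Of the transporters, Slc10a1 (NTCP), which takes bile acids up from portal blood, was at 101, 131 and 127 FPKM in rat 1, rat 2 and rat 3, a mean of 119.8 ± 16.0 (SD, n = 3). Abcb4, the canalicular phospholipid flippase that protects the bile duct from bile salts, was at 10.8, 13.2 and 15.8 FPKM, a mean of 13.3 ± 2.52. Rat 1 was lowest for both. Abcb4 belongs to a transporter family with closely related members that can share reads, so its level is uncertain.

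Nr1h4, the bile acid receptor FXR, was at 34.9, 44.7 and 33.0 FPKM in rat 1, rat 2 and rat 3, a mean of 37.5 ± 6.30 (SD, n = 3). Rat 2 was the high library. It was below Cyp7a1 in rat 1 and rat 3 and above it in rat 2, so the order of the pair was not settled by these libraries.

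**Figure D1:**
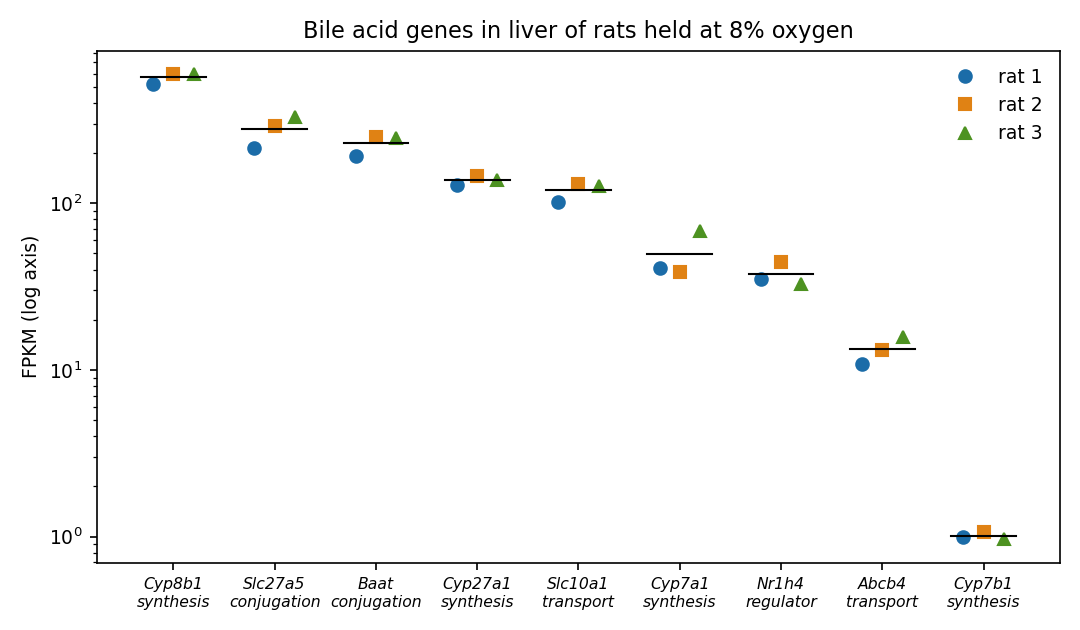
FPKM (log axis) of the 9 members in the 3 rat libraries, ordered by mean, with points for libraries and a bar for the mean. Levels run from 571 FPKM for Cyp8b1 to 1.01 FPKM for Cyp7b1.

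By mean level the order was Cyp8b1, Slc27a5, Baat, Cyp27a1, Slc10a1, Cyp7a1, Nr1h4, Abcb4 and Cyp7b1. Of the 8 neighbouring pairs, 5 had ranges that did not overlap over the 3 rats. The neighbours that overlapped were Slc27a5 with Baat, Cyp27a1 with Slc10a1, and Cyp7a1 with Nr1h4. The order within each library was the same in rat 1 and rat 3, and rat 2 differed only in placing Nr1h4 above Cyp7a1. In all, 5 members had a mean of at least 100 FPKM and 8 of at least 10 FPKM. Every value of those 5 lay above its own row's deposited upper confidence bound, so their levels and ranks are uncertain. The median of the 9 means was 119.8 FPKM, beside 6.74 FPKM over the 9994 background rows.

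Cyp7a1 varied most between the libraries. Its highest value was 1.78 times its lowest, a spread above that of 91.0% of rat rows, and 1.07 times without rat 3. Slc27a5 followed at 1.54 times, 1.13 times without rat 1, 1.35 times without rat 3 and 1.46 times after scaling the libraries by their median ratio. These were the 2 of 9 members whose highest value was at least 1.5 times the lowest, beside 18.8% of the 9987 background rows above 0 in each library, and 1 of 9 after the scaling, beside 17.7%. No member reached 2 times (0 of 9), beside 5.95% of those rows (5.82% after the scaling); shares of the members near those of all rows say nothing particular of the members. The other members ranged from 1.11 times for Cyp7b1 to 1.47 times for Abcb4. The median over the members was 1.29, against 1.24 over the background rows and 1.21 over rows averaging 10 FPKM or more.

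**Figure D2:**
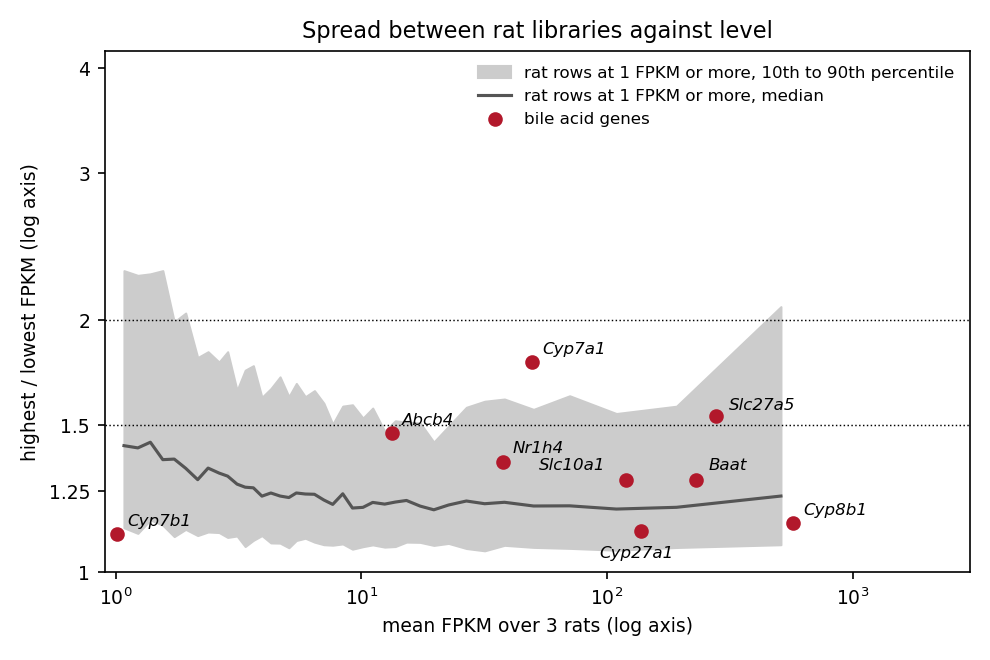
Highest over lowest FPKM of the 3 rat libraries against mean FPKM (both axes log), with the 9 members as points, the median of rat rows as a line and their 10th to 90th percentiles shaded; dotted lines mark 1.5 and 2 times. Cyp7a1, at 1.78 times, is the member farthest above the line, and Cyp8b1, at 1.15 times, lies below it.

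Rat 1 was the lowest library for 6 of the 9 members, beside 48.6% of the background rows, for which rat 1 was also the commonest lowest library. The 6 were Cyp8b1, Cyp27a1, Slc27a5, Baat, Slc10a1 and Abcb4. After median-ratio scaling rat 1 was still lowest for 6 of 9, beside 31.8% of rows. For these 6 the scaled highest value was from 1.03 times (Cyp27a1) to 1.46 times (Slc27a5) the lowest, so some of the differences were small. The highest library was rat 2 for 5 members and rat 3 for 4, beside 49% and 33.5% of the background rows. After the same scaling it was rat 2 for 2 members, rat 3 for 6 and rat 1 for 1, beside 36.5% of rows for rat 2 and 32.1% for rat 3, so which library stood highest depended on the scaling. The median log2 deviation of rat 1 from the mean of the 3 rats was -0.24 over the members and -0.07 over the background rows. For the single members it ran from -0.37 for Slc27a5 to -0.02 for Cyp7b1.

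The summed level of the 5 measured hepatocyte markers (7 listed) was 12421, 14915 and 13004 FPKM in rat 1, rat 2 and rat 3. Most of this sum was Ttr, at 9869, 12914 and 10322 FPKM, the only 1 of the 5 that was lowest in rat 1. Apob, Tat and Asgr1 were lowest in rat 2, with Tat at 1023, 429 and 1221 FPKM, and Cps1 was lowest in rat 3. Of 6 Kupffer cell markers, 5 reached 1 FPKM and summed to 105, 118 and 149.9 FPKM; Marco was listed at 0 on unplaced sequence, which is no measurement. In the same order the 8 measured cholangiocyte markers (9 listed) summed to 37.5, 42.4 and 45.2 FPKM, with none at 0. The 4 measured endothelial markers (5 listed) summed to 56.8, 51.5 and 49.1 FPKM, the 5 stellate cell markers to 10.3, 8.86 and 13.4 FPKM, and the 4 intestinal markers, with Fabp6 at 0, to 3.82, 3.42 and 8.19 FPKM. A few genes carried the higher sums in rat 3: Dcn was at 2.83, 2.93 and 6.11 FPKM, Des at 1.78, 1.81 and 3.27 FPKM and Fabp2 at 3.44, 3.06 and 7.80 FPKM, whereas Reln, Col1a1 and Slc10a2 were highest in rat 1. Hbb, the 1 of 3 red blood cell markers measured, was at 54.4, 357 and 348 FPKM. Their part in the levels of the members was not tested, and in bulk tissue fewer cells of a type and less RNA per cell cannot be told apart.

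**Figure D3:**
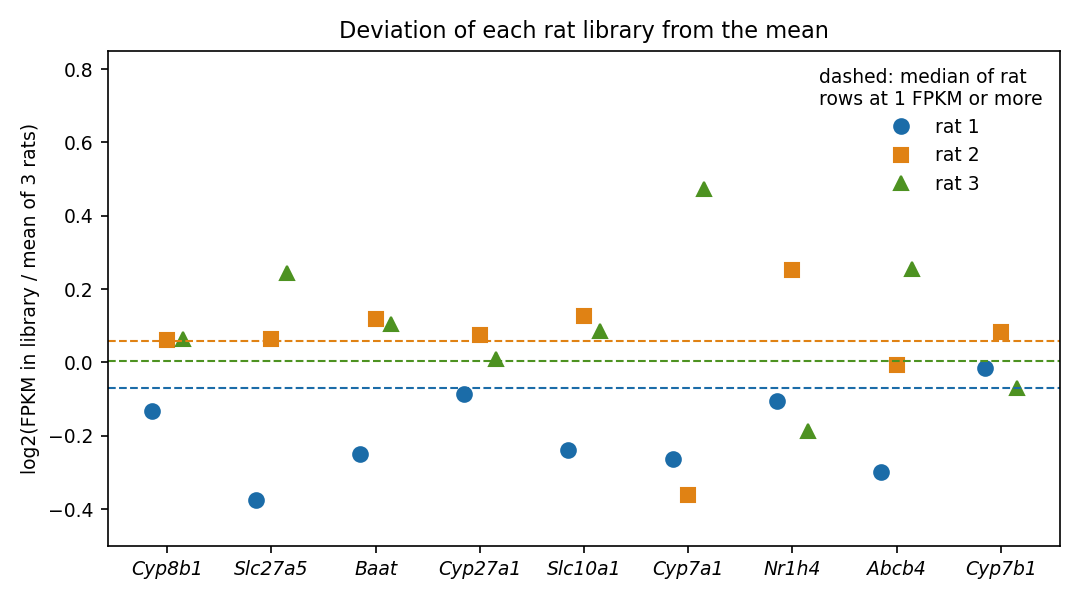
Log2 of the FPKM in each rat library over the mean of the 3 rats, for the 9 members in order of level; dashed lines give the median of the background rows in each library. Rat 1 lies below its dashed line for 8 members, the exception being Cyp7b1, and rat 3 stands highest for Cyp7a1 at 0.47.

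Of 44 further genes of bile acid synthesis, transport and regulation, 41 were matched in the rat tables, 2 of them under the older symbols Ostalpha and Ostbeta, and 0 in the naked mole rat tables as used here. Of the 41, 29 reached a mean of 1 FPKM, 21 reached 10 FPKM and 12 reached 100 FPKM. The median of the 29 was 35.5 FPKM, beside 6.74 FPKM for all rat rows at that limit. Of the 29, 7 had a highest value at least 1.5 times the lowest (18.8% of all rows), and 3 at least 2 times (5.95%). The count of 7 became 2 without rat 3 and 3 without rat 2. Rat 1 was lowest for 16 of the 29, beside 48.6% of all rows.

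Of 13 matched synthesis genes, 8 reached 100 FPKM, led by Scp2, a sterol carrier of peroxisomes that also takes part in shortening the side chain, at 475, 496 and 494 FPKM in rat 1, rat 2 and rat 3. Slc27a2, a very long-chain acyl-CoA synthetase that can activate bile acid precursors, was at 335, 444 and 385 FPKM. Amacr, a racemase of the side-chain steps chosen here for its values, stood at 111, 128 and 193 FPKM and so was highest in rat 3, as Cyp7a1 was. Cyp46a1 and Ch25h, which hydroxylate cholesterol outside the main hepatic pathways, had means of 0.333 and 0.102 FPKM, with highest over lowest values of 2.03 and 3.94 at these low levels.

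Of 12 matched transport genes, 2 reached 10 FPKM. The rows of Slco1a4, named here for its placement, and Abcc2 lie on unplaced sequence and were listed at 0. Neither could reach any level, here or in the counts out of 41. Ephx1, an epoxide hydrolase also described as a bile acid carrier, was at 244, 251 and 193 FPKM, and Slco1b2, an organic anion uptake transporter of hepatocytes, at 33.4, 42.2 and 33.7 FPKM. Abcg5, which exports sterols into bile with Abcg8, was at 5.13, 6.18 and 2.82 FPKM, lowest in rat 3. Abcc2, the canalicular exporter MRP2, was listed at 0 in each rat. Its row lies on chromosome 1 sequence that has no position in the assembled chromosome, and 0 of the 831 rows on unplaced sequence exceeded 0 in any rat, so this value says only how the row is listed.

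Of 16 matched regulators, 3 reached 100 FPKM. Nr1i2 (PXR), a receptor for foreign compounds and bile acids, was at 133, 139.6 and 125 FPKM, and Rxra, the partner of FXR, at 135, 121 and 142 FPKM. Nr0b2 (SHP), the corepressor induced by FXR, was at 3.72, 4.79 and 9.95 FPKM in rat 1, rat 2 and rat 3. It was highest in rat 3, where Cyp7a1 was also highest and Nr1h4 lowest. Nr1i3 (CAR) was at 30.5, 47.3 and 23.4 FPKM, lowest in rat 3. Of the receptor complex for the intestinal hormone FGF15, Fgfr4 was at 17.5, 19.6 and 21.0 FPKM and its partner Klb at 1.46, 2.04 and 1.98 FPKM. Fgf15 itself, made in ileum and named here with its value known, was listed at 0 in each rat.

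**Figure D4:**
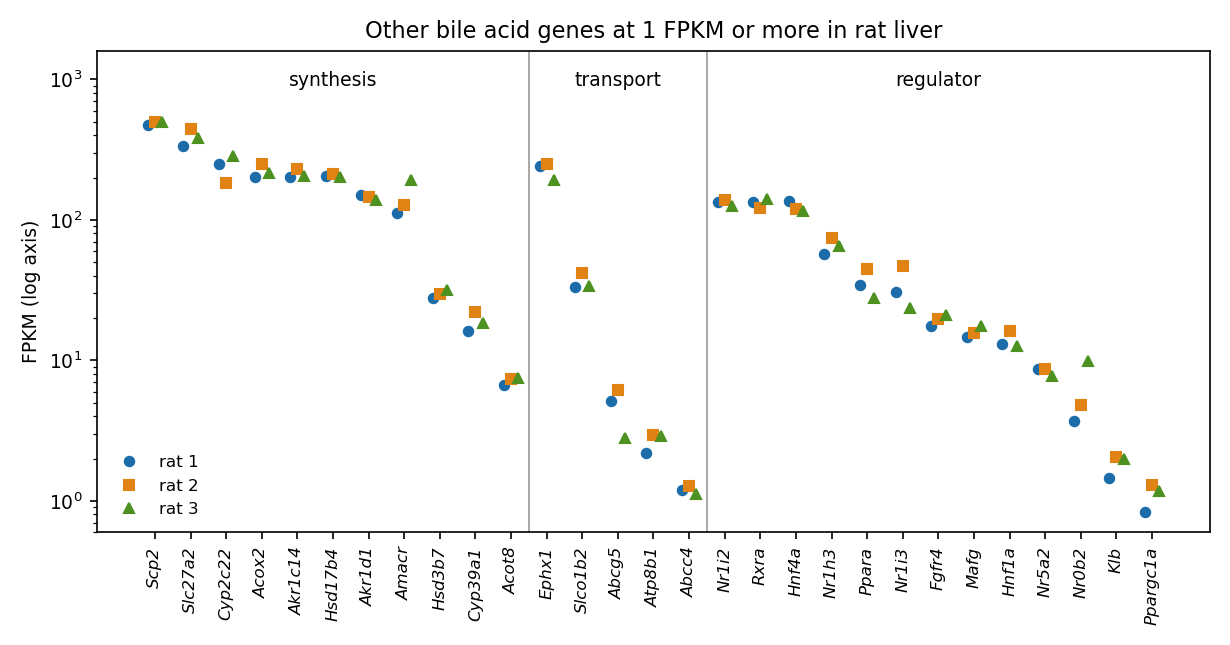
FPKM (log axis) in the 3 rat libraries of the 29 further genes that averaged 1 FPKM or more, by role and then by level. Synthesis genes lie mostly above 100 FPKM, and rat 3 stands apart for Amacr and Nr0b2 on the high side and for Abcg5 on the low side.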

How the data were processed

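Liver polyadenylated RNA of 3 naked mole rat and 3 rat libraries was measured, each after 8 hours in 8% oxygen. The deposited tables hold FPKM with the columns of a Cufflinks gene table, per the file headers. Tools listed in the submitters' processing notes are Cufflinks 2.1.1, TopHat2 2.0.9, Bowtie2 2.1.0 and Picard 1.137. Their genome build is not given in the sources used here. FPKM holds no counts, so no counting interval was computed. Of the 27 member values, 16 lay above their own row's deposited upper confidence bound, so these bounds were not used. They were every value of Cyp8b1, Cyp27a1, Slc27a5, Baat and Slc10a1, the members at 100 FPKM or more, and 1 value of Nr1h4.

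Members and lists were chosen with earlier results of these data known. HIDATA rows were treated as missing. Levels were used as deposited and described by mean, SD and the highest over the lowest library. The background was rat rows with no missing value that averaged 1 FPKM or more, and spreads were counted at 1.5 and 2 times. The planned limma test between species was not run, because no member or further gene was matched in both species, and ratios with Abcb11 were not computed. The members were all named; the further genes named were the 2 of highest mean per role, those past 2 times, Nr0b2, Fgfr4, Klb and Abcc2, with exceptions marked. Lists were matched through older RefSeq symbols where needed. The alternatives were median-ratio scaling (factors of 0.957, 1.04 and 1.01 for rat 1, rat 2 and rat 3), a sum of 1000000, a pseudocount of 1, other background filters and leaving out each library. Python 3.11.15, numpy 2.4.6 and pandas 2.3.3 were used. The spread count was tested on simulated data with less spread between libraries than here, which checks only the counting.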

Additional observations from a re-analysis of the deposited data

How the results depend on the processing

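The count of members with a highest value at least 1.5 times the lowest was 2 and became 1 after median-ratio scaling, which left out Slc27a5. Leaving out each rat in turn gave 0 to 2 such members. Leaving out a library or adding a pseudocount cannot raise the highest over lowest value of a gene, so these runs could only keep or lower that count. The count at 2 times was 0 under every alternative run, of which only the scalings could have raised it. The count of members at 100 FPKM or more was 5 throughout, also with each library set to a sum of 1000000, which multiplied the levels. The neighbouring pairs without overlap numbered 5 to 7 and the members lowest in rat 1 numbered 6 to 8 over all alternatives. Leaving out another library can only keep or raise a count of members lowest or highest in a given rat. The members highest in rat 2 numbered 5, against 2 after median-ratio scaling, 6 with a sum of 1000000 and 5 to 8 over the libraries left out. Those highest in rat 3 numbered 4, against 6, 3 and 4 to 7 under the same alternatives. The mean log2 ratio of Cyp7b1 over Cyp7a1 was -4.60 with a pseudocount of 1 FPKM, against -5.57 without it, because the pseudocount is as large as the Cyp7b1 value. The other 4 ratios kept their sign under the pseudocount and without each rat, although Nr1h4 over Cyp7a1 came to -0.01 without rat 3, against -0.36 with it. The pseudocount moved each of the 4 by less than 1 SD. With 3 libraries, leaving out 1 cannot move a mean by as much as 1 SD, so the size of that move was no test. Of the further genes, 7 passed 1.5 times, and leaving out each rat in turn gave 2 to 6 (an alternative chosen after seeing the data), with 2 without rat 3 and 3 without rat 2. No paired analysis was possible because no member or further gene was matched in both species. Rows averaging 10 FPKM or more, a background chosen after seeing the data, passed 1.5 times in 12.8% and 2 times in 3.92% of cases; with no filter other than a value above 0 in each rat the shares were 33.4% and 17.2%. Unknown absolute depth limits what can be said of Cyp7b1 and other genes near 1 FPKM, and 3 libraries of 1 condition allow no test of the spread.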
